A study of Homo sapiens with 8 samples.

Results

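Heat shock proteins are molecular chaperones, and the messages of 10 of them were followed here across the 4 groups of a SNORA13 knockout experiment. They were chosen by gene symbol out of 58870 rows: HSPA1A, HSPA1B, HSPA8, HSP90AA1, HSP90AB1, HSPH1, DNAJB1 and HSPB1, which act in the cytosol and nucleus, and HSPD1 and HSPE1, which act in mitochondria. The cells were BJ, a human skin fibroblast line, in a derivative labelled BJ-HRAS. Every group shares that background, and in such lines a RAS protein fused to an oestrogen receptor domain becomes active on addition of (Z)-4-hydroxytamoxifen (4-OHT), which drives the cells into senescence, a lasting stop of division. The labels do not describe the construct itself. The groups were SNORA13 KO cells with 100 nM 4-OHT for 7 days, SNORA13 KO cells without it, WT cells with 100 nM 4-OHT for 7 days, and WT cells without it. Each group held 2 clones, 66 and 69 for KO and 15 and 54 for WT, and each clone was sampled in both states, giving 8 libraries of total RNA. A genotype therefore rests on 2 clonal lines, and KO minus WT holds whatever else sets those clones apart. Which library had 4-OHT was read from a sign in the deposited column names that no label spells out.

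Library totals were 22.058 to 24.908 M reads. SNORA13, the deleted small nucleolar RNA, had 0 reads in all 4 KO libraries, against 4 to 7 reads in the 4 WT libraries. All 9 fibroblast markers were measured, with summed levels of 1695 to 1976 RPKM in KO with 4-OHT and 3772 to 3939 RPKM in KO without, and of 1816 to 1823 RPKM in WT with 4-OHT and 3957 to 4184 RPKM in WT without. The sum hides differences between markers. VIM had 53035 to 66282 reads with 4-OHT and 38192 to 41674 reads without, and THY1 overlapped. The other markers had fewer reads in every library with 4-OHT than in any without, DCN 135 to 179 against 8473 to 13347. KRT5, KRT14 and CD68 had 0 reads in all 8 libraries, and endothelial and immune sums were at most 0.363 and 3.91 RPKM. The melanocyte or neural list, carried by MITF, summed to 3.94 to 4.55 RPKM in KO with 4-OHT and 13.0 to 15.1 RPKM in KO without, and to 8.99 to 15.2 RPKM in WT with 4-OHT and 16.7 to 18.1 RPKM in WT without. The epithelial list, led by KRT18 with EPCAM and CDH1 at no more than 35 reads, summed to 256 to 265 RPKM in KO with 4-OHT and 474 to 532 RPKM in KO without, against 277 to 284 RPKM in WT with 4-OHT and 761 to 780 RPKM in WT without. The signal recognition particle RNA took 16.1% and 14.8% of reads in KO with 4-OHT and 9.27% and 10.1% in KO without. It took 9.72% (clone 15) and 15.4% (clone 54) in WT with 4-OHT and 9.18% and 9.58% in WT without. Within each genotype the fibroblast, epithelial and melanocyte or neural sums were lower with 4-OHT. The signal recognition particle share was higher with 4-OHT in both KO clones and in WT clone 54, and hardly changed in WT clone 15. The part of these values in the results below was not tested.

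Chaperones bind unfolded or client proteins and, through cycles of ATP, help them fold, mature or reach degradation. HSP70 proteins work with J-domain partners, which feed them clients, and with HSP110 proteins, which exchange their nucleotide; HSP90 takes over many kinases and receptors for late folding; small heat shock proteins hold unfolded clients without ATP; and the HSP60 and HSP10 ring folds proteins inside mitochondria. Heat shock factor HSF1 binds heat shock elements, arrays of inverted GAA units, in the promoters of such genes after heat and other protein stress. Some family members, such as HSPA8 and HSP90AB1, are made in unstressed cells as well, while HSPA1A and HSPA1B are the classical inducible HSP70 genes.

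With 4-OHT, 6 of the 10 messages rose in KO and in WT cells: HSPA8, HSP90AA1, HSP90AB1, HSPH1, HSPD1 and HSPE1, by 1.56-fold to 2.60-fold. HSPB1 fell in both genotypes, HSPA1A was called lower in KO alone and HSPA1B in WT alone, and DNAJB1 was called higher in KO alone. In KO cells 7 members were called higher and 2 lower, where 27.9% and 27.8% of all 16543 genes tested were called in those directions (55.7% either way). In WT cells 6 were called higher and 2 lower, where the shares of all genes were 24.7% and 24.2% (48.9% either way). The members' counts of 9 and 8 of 10 are read against those shares. The median log2 change over the 10 members was 0.75 in KO and 0.65 in WT, and over all genes tested it was -0.02 in each. For the 8 cytosolic members the medians were 0.48 in KO and 0.36 in WT, and for the 2 mitochondrial members 1.27 in KO and 1.11 in WT. All 10 members passed the filter on low values, with 176 reads (HSPE1) to 69347 reads (HSPA8) in a library. A call is an adjusted p under 0.05 in limma, fitted on log2(RPKM + 0.1) of all genes, where RPKM is reads per kilobase of the listed transcript, scaled to the library total. These RNA samples are bulk, so that fewer cells with a message and less message per cell cannot be told apart.

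**Figure D1:**
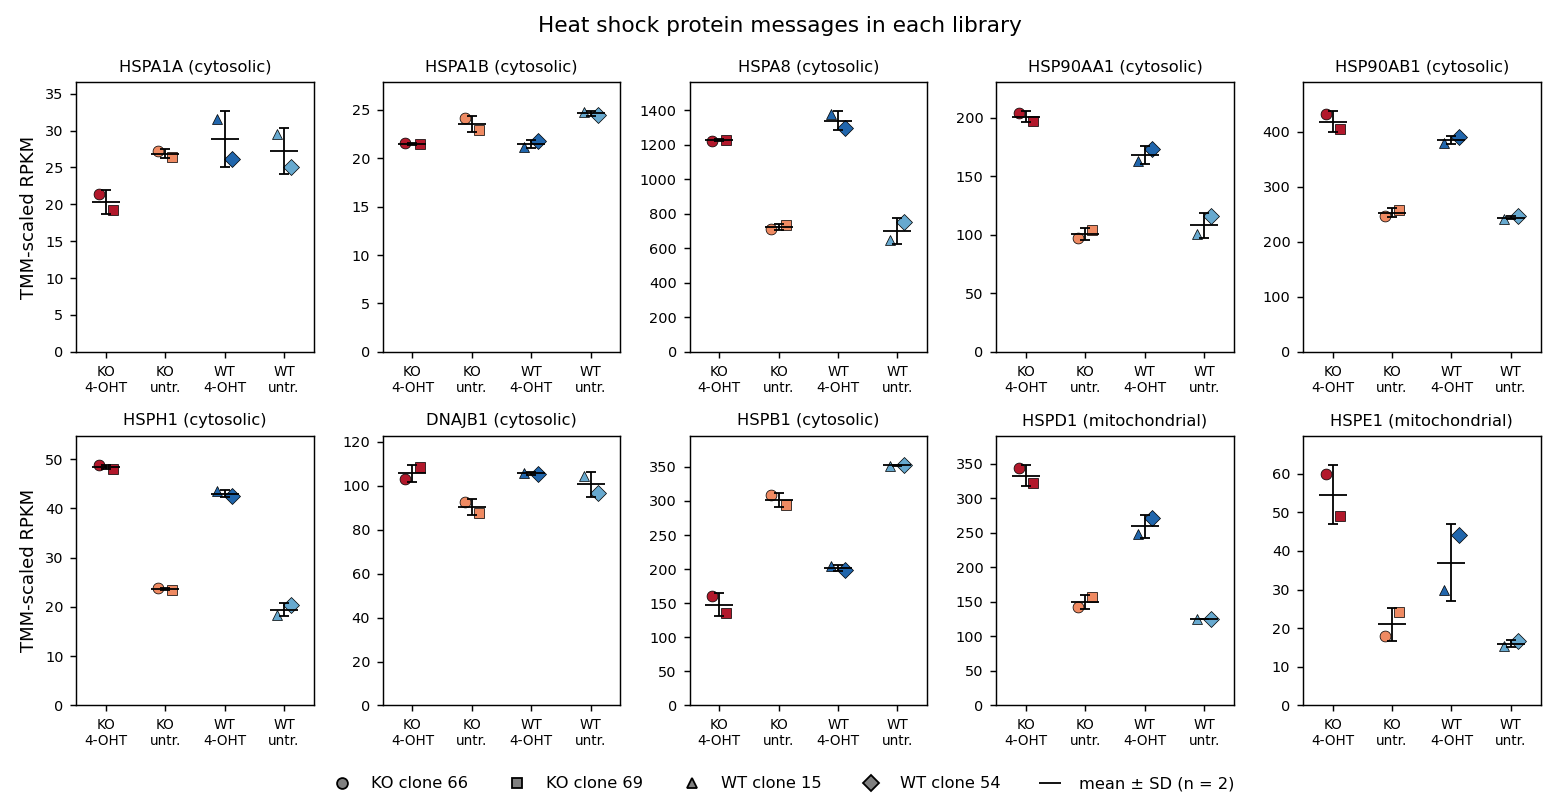
TMM-scaled RPKM of the 10 heat shock protein messages in the 8 libraries, on linear axes from 0, with 1 point per clone and the mean ± SD of the 2 clones of a group. HSPA8, HSP90AA1, HSP90AB1, HSPH1, HSPD1 and HSPE1 were higher in every library with 4-OHT than in any without it, and HSPB1 and HSPA1B were lower. The share of all genes tested that were separated in this way was not counted.

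HSPA8 (ENSG00000109971.14, chr11:123057489-123063230, minus strand; GRCh38, GENCODE release 29) encodes the constitutive cytosolic HSP70, which folds new chains and uncoats clathrin vesicles. It was the most abundant member in all 4 groups and lay above at least 99.5% of the genes tested in each. HSPA8 had 1223.7 and 1230.3 RPKM in KO clones 66 and 69 with 4-OHT, against 710.6 and 734.9 RPKM in the same clones without it. In WT clones 15 and 54 it had 1378.0 and 1299.7 RPKM with 4-OHT, against 647.7 and 754.8 RPKM without. All 4 libraries with 4-OHT lay above all 4 without, and with 4-OHT the KO clones were the lower ones. The log2 change was 0.76 (SE 0.09, adjusted p = 0.000254, limma) in KO and 0.94 (SE 0.09, adjusted p = 0.00014, limma) in WT, or 1.70-fold and 1.91-fold. HSPA8 made up 56.0% ± 1.1 (SD, n = 2) of the summed RPKM of the 8 cytosolic members in KO with 4-OHT and 46.9% ± 0.67 in KO without, and 58.4% ± 1.1 in WT with 4-OHT and 44.4% ± 2.5 in WT without.

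HSPA1A (ENSG00000204389.9, chr6:31815464-31817946, plus strand) and HSPA1B (ENSG00000204388.7, chr6:31827735-31830255, plus strand) encode nearly the same stress-inducible HSP70. They share 71.2% (HSPA1A) and 73.2% (HSPA1B) of their 75-base words with other annotated transcripts, mostly each other, so that reads could be split between the rows or lost by the counting and each row is uncertain. HSPA1A had 21.4 and 19.2 RPKM in KO clones 66 and 69 with 4-OHT, against 27.3 and 26.5 RPKM without, and the groups did not overlap. In WT clones 15 and 54 it had 31.5 and 26.2 RPKM with 4-OHT, against 29.5 and 25.1 RPKM without, and these overlapped. HSPA1A fell in KO, with a log2 change of -0.41 (SE 0.12, adjusted p = 0.0222, limma), and its log2 difference in WT was 0.08 (SE 0.12, adjusted p = 0.622). The call in KO was lost with no filter (adjusted p = 0.0721) and without KO clone 69 with 4-OHT (0.128), KO clone 66 without 4-OHT (0.0941) or KO clone 69 without 4-OHT (0.0696).

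HSPA1B had 21.5 and 21.4 RPKM in KO with 4-OHT and 24.1 and 22.9 RPKM in KO without, and 21.1 and 21.7 RPKM in WT with 4-OHT and 24.8 and 24.5 RPKM in WT without. Every library with 4-OHT was below every library without it, by little. Its log2 change was -0.13 (SE 0.07, adjusted p = 0.135, limma) in KO and -0.20 (SE 0.07, adjusted p = 0.0412, limma) in WT. The WT call was lost on leaving out any of the 8 libraries (adjusted p of 0.0556 to 0.140), with no filter (0.105), with limma-voom (0.0519), with the 4 WT libraries alone (0.118) and with the replicate block on clones (0.0614). With the reads of both rows summed, the log2 change was -0.27 (SE 0.08, adjusted p = 0.0247, limma) in KO and -0.05 (SE 0.08, adjusted p = 0.670) in WT. The pair thus did not share the rise of HSPA8: together they stood at 3.41% ± 0.15 of the HSPA8 level in KO with 4-OHT and 6.98% ± 0.36 in KO without, and at 3.75% ± 0.10 in WT with 4-OHT and 7.47% ± 1.3 in WT without (SD, n = 2 each). HSPA8 shares 2.2% of its 75-base words with other transcripts, far less than the pair. If the counting lost shared reads, these percentages are too low, and summing the rows does not restore such reads.

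HSPH1 (ENSG00000120694.19, chr13:31134974-31162388, minus strand) encodes HSP105, an HSP110 protein that releases nucleotide from HSP70. It had 48.7 and 48.1 RPKM in KO with 4-OHT and 23.8 and 23.5 RPKM in KO without, and 43.5 and 42.5 RPKM in WT with 4-OHT and 18.5 and 20.3 RPKM in WT without. No library with 4-OHT came near one without. HSPH1 rose 2.04-fold in KO (log2 1.03, SE 0.07, adjusted p = 2.78e-05, limma) and 2.21-fold in WT (log2 1.15, SE 0.07, adjusted p = 2.85e-05, limma). DNAJB1 (ENSG00000132002.8, chr19:14514770-14529770, minus strand) encodes HSP40, the J-domain partner of inducible HSP70. It had 102.9 and 108.3 RPKM in KO with 4-OHT and 92.6 and 87.6 RPKM in KO without, and 105.9 and 105.1 RPKM in WT with 4-OHT and 104.5 and 96.6 RPKM in WT without. DNAJB1 rose 1.17-fold in KO (log2 0.23, SE 0.07, adjusted p = 0.0288, limma), and its log2 difference in WT was 0.07 (SE 0.07, adjusted p = 0.454). The KO call was lost with library size alone as scaling (adjusted p = 0.0823), without clone 66 with 4-OHT (0.0611), clone 69 with 4-OHT (0.119), clone 66 without 4-OHT (0.0683) or clone 69 without 4-OHT (0.178).

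The HSP90 isoforms rose in both genotypes. HSP90AA1 (ENSG00000080824.18, chr14:102080738-102139699, minus strand), the inducible alpha isoform, had 204.2 and 197.6 RPKM in KO with 4-OHT and 97.2 and 104.5 RPKM in KO without. It had 162.7 and 173.5 RPKM in WT with 4-OHT and 100.6 and 115.9 RPKM in WT without. The KO clones with 4-OHT were the highest of the 4 groups and the untreated groups overlapped. HSP90AA1 rose 1.99-fold in KO (log2 0.99, SE 0.09, adjusted p = 7.95e-05, limma) and 1.56-fold in WT (log2 0.64, SE 0.09, adjusted p = 0.000889, limma). HSP90AB1 (ENSG00000096384.20, chr6:44246166-44253888, plus strand), the constitutive beta isoform, had 432.2 and 405.4 RPKM in KO with 4-OHT and 247.3 and 258.6 RPKM in KO without. It had 380.2 and 390.3 RPKM in WT with 4-OHT and 241.9 and 246.9 RPKM in WT without. Its log2 change was 0.73 (SE 0.07, adjusted p = 9.61e-05, limma) in KO and 0.66 (SE 0.07, adjusted p = 0.000222, limma) in WT. The alpha to beta ratio of RPKM was 0.480 ± 0.010 in KO with 4-OHT and 0.399 ± 0.0078 in KO without, and 0.436 ± 0.012 in WT with 4-OHT and 0.443 ± 0.038 in WT without (SD, n = 2 each). The ratio did not overlap between the KO groups and overlapped between the WT groups.

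HSPB1 (ENSG00000106211.9, chr7:76302544-76304295, plus strand) encodes HSP27, a small heat shock protein that holds unfolded clients and binds actin filaments. It had 159.9 and 135.8 RPKM in KO with 4-OHT and 309.3 and 294.3 RPKM in KO without. In WT it had 204.5 and 198.0 RPKM with 4-OHT and 351.6 and 352.8 RPKM without. No 2 groups overlapped, and in each state the KO clones were below the WT clones. HSPB1 fell by 1.03 on the log2 scale in KO (SE 0.09, adjusted p = 6.64e-05, limma) and by 0.81 in WT (SE 0.09, adjusted p = 0.0003, limma). Among the 10 members it had rank 5 in KO and rank 4 in WT with 4-OHT, and rank 2 in both groups without. Its RPKM was 12.1% ± 1.4 of that of HSPA8 in KO with 4-OHT and 41.8% ± 2.5 in KO without, and 15.0% ± 0.28 in WT with 4-OHT and 50.5% ± 5.3 in WT without (SD, n = 2 each).

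The mitochondrial pair lies head to head on chromosome 2. HSPD1 (ENSG00000144381.17, chr2:197486581-197516737, minus strand) encodes HSP60, the folding ring of the mitochondrial matrix, and HSPE1 (ENSG00000115541.11, chr2:197499994-197503457, plus strand) encodes HSP10, its lid. HSPD1 had 344.1 and 322.2 RPKM in KO with 4-OHT and 142.3 and 157.0 RPKM in KO without. In WT it had 248.0 and 271.7 RPKM with 4-OHT and 125.7 and 125.2 RPKM without. The 4 groups did not overlap, and KO stood above WT in each state. HSPD1 rose 2.23-fold in KO (log2 1.15, SE 0.08, adjusted p = 2.96e-05, limma) and 2.07-fold in WT (log2 1.05, SE 0.08, adjusted p = 6.59e-05, limma).

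HSPE1 had 60.0 and 49.1 RPKM in KO with 4-OHT and 18.0 and 24.1 RPKM in KO without, and 29.9 and 44.0 RPKM in WT with 4-OHT and 15.5 and 16.6 RPKM in WT without. Its SE was the largest among the 10 members, and WT clone 15 with 4-OHT, the library with the low signal recognition particle RNA, was the lowest with 4-OHT. HSPE1 rose 2.60-fold in KO (log2 1.38, SE 0.21, adjusted p = 0.00103, limma) and 2.26-fold in WT (log2 1.17, SE 0.21, adjusted p = 0.00279, limma). By clone the change was 3.32-fold in KO clone 66, 2.04-fold in KO clone 69, 1.93-fold in WT clone 15 and 2.65-fold in WT clone 54. Pseudogene rows named after HSPE1 held 11.2% to 22.4% of the reads of HSPE1 and those rows combined. The like share was 5.37% to 10.6% for HSPD1 and at most 1.98% for the other members with such rows. The read-through gene HSPE1-MOB4, which overlaps 192 of the 1977 exonic bases of HSPE1, also rose, with a log2 change of 1.39 (SE 0.11, adjusted p = 4.35e-05, limma) in KO and 1.34 (SE 0.11, adjusted p = 7.34e-05, limma) in WT, while the downstream MOB4 row changed by -0.44 (SE 0.12, adjusted p = 0.0169, limma) in KO and 0.25 (SE 0.12, adjusted p = 0.131) in WT. Another 281 of those bases lie antisense to HSPD1 exons, and whether the counting used strand is not given in the sources used here.

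**Figure D2:**
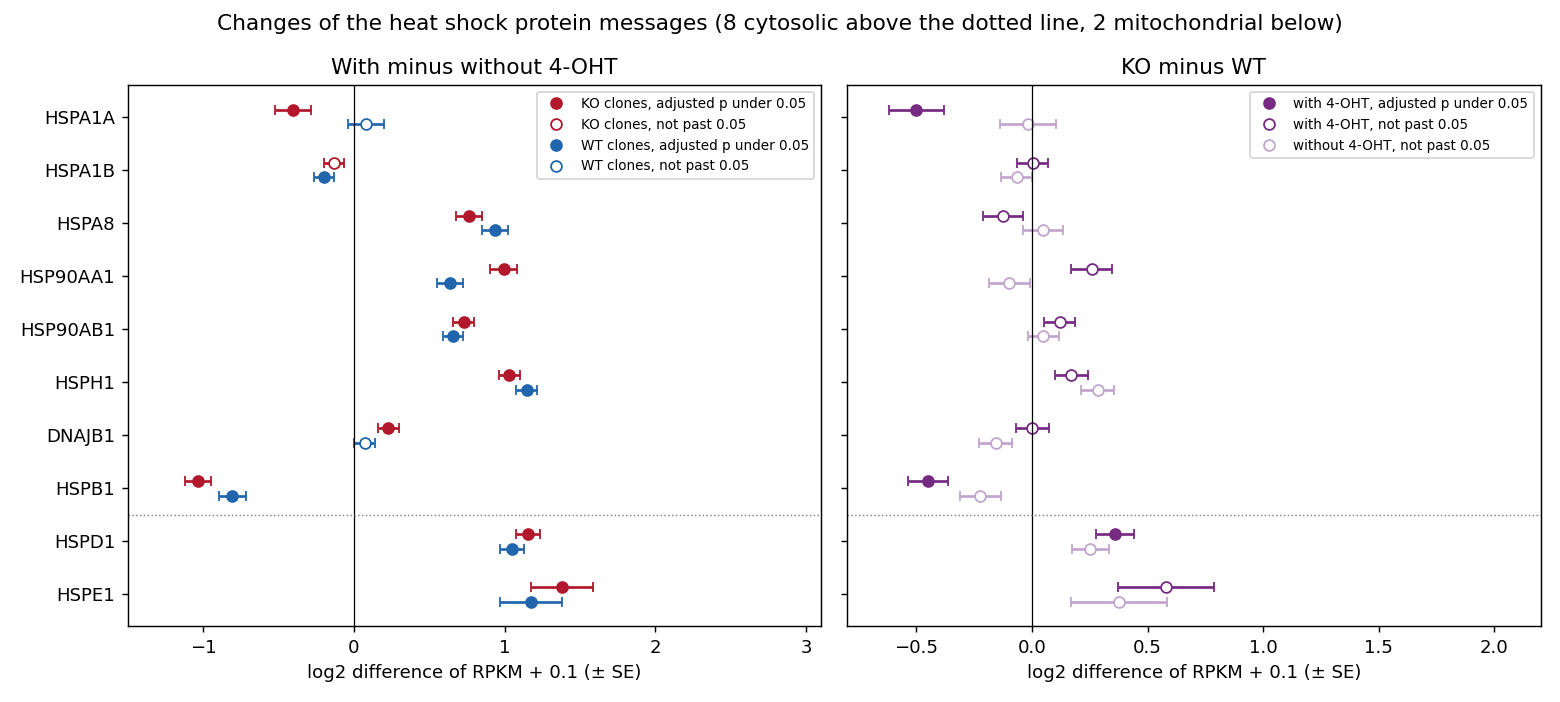
Log2 differences of RPKM + 0.1 (± SE, limma) of the 10 messages, with minus without 4-OHT at left for KO and WT and KO minus WT at right with and without 4-OHT. Filled points passed an adjusted p of 0.05; the members called differ in size between HSPA1B (-0.20 in WT) and HSPE1 (1.38 in KO), and KO minus WT reached it in HSPA1A, HSPB1 and HSPD1 with 4-OHT.

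Summed over the 8 cytosolic members, the level was 2190 ± 34 RPKM in KO with 4-OHT and 1543 ± 15 RPKM in KO without, and 2292 ± 50 RPKM in WT with 4-OHT and 1578 ± 83 RPKM in WT without (SD, n = 2 each). The mitochondrial sum was 388 ± 23 RPKM in KO with 4-OHT and 171 ± 15 RPKM in KO without, and 297 ± 27 RPKM in WT with 4-OHT and 142 ± 0.47 RPKM in WT without. In both sums the 4 libraries with 4-OHT lay above the 4 without. With 4-OHT the cytosolic sum of the KO clones lay just below that of the WT clones. This order of the cytosolic sums rests on the scaling. With library size alone they overlapped, at 2148 and 2163 RPKM in KO and 2347 and 2152 RPKM in WT. The mitochondrial sum of the KO clones with 4-OHT lay above that of the WT clones under either scaling. The cytosolic sum was 5.66 ± 0.25 times the mitochondrial in KO with 4-OHT and 9.07 ± 0.69 times in KO without, and 7.76 ± 0.87 times in WT with 4-OHT and 11.2 ± 0.55 times in WT without. The 4 groups did not overlap in this ratio. Sums are led by HSPA8 and HSPD1, and no test was run on them. The size of the mitochondrial sum and of the ratio rests on the listed transcript lengths. HSPD1 is listed at 529 bases against 2455 in its longest coding transcript, and with the longer length its RPKM would be lower and the ratio higher. The 10 members together took 0.499% of reads in KO with 4-OHT and 0.318% in KO without, and 0.498% in WT with 4-OHT and 0.322% in WT without.

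**Figure D3:**
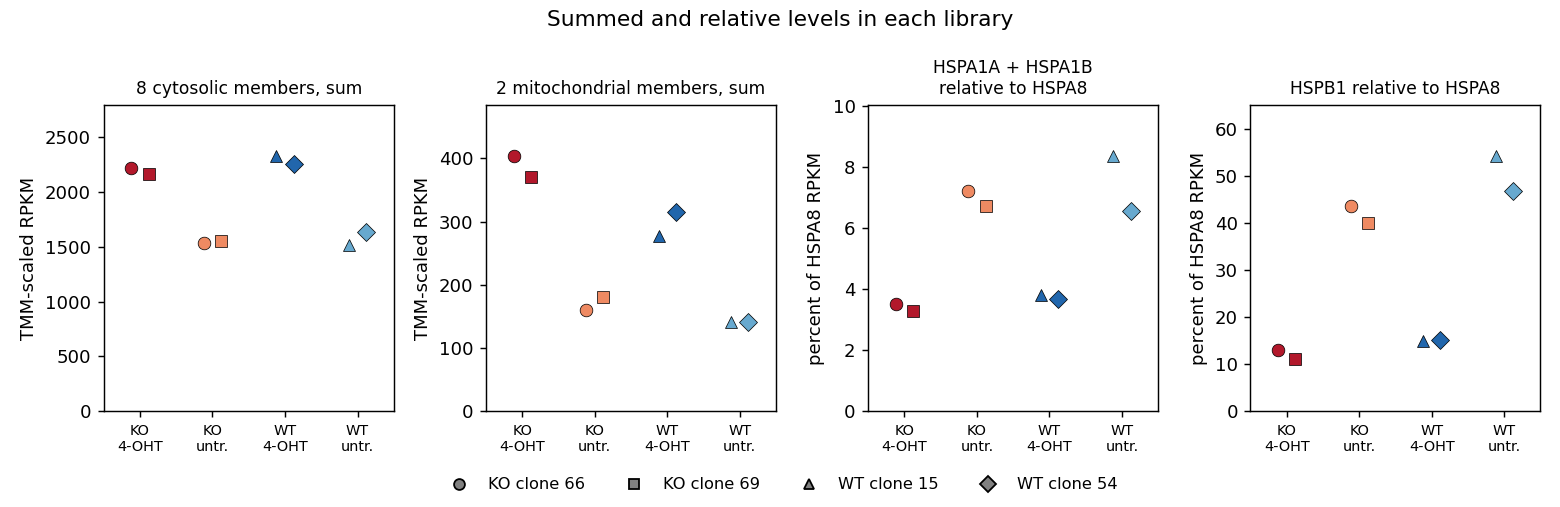
Summed TMM-scaled RPKM of the cytosolic and of the mitochondrial members, and the levels of HSPA1A plus HSPA1B and of HSPB1 as a percentage of HSPA8, with 1 point per library and axes from 0. The sums were higher and the percentages lower in all 4 libraries with 4-OHT than in the 4 without. The mitochondrial sum was highest in KO with 4-OHT (371 and 404 RPKM), and its size rests on the listed transcript lengths.

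The order of levels shifted with 4-OHT. In KO with 4-OHT it ran HSPA8, HSP90AB1, HSPD1, HSP90AA1, HSPB1, DNAJB1, HSPE1, HSPH1, HSPA1B and HSPA1A, and the ranges of the last 2 overlapped. In KO without 4-OHT it ran HSPA8, HSPB1, HSP90AB1, HSPD1, HSP90AA1, DNAJB1, HSPA1A, HSPH1, HSPA1B and HSPE1, and the last 3 could not be set apart. In WT with 4-OHT it ran HSPA8, HSP90AB1, HSPD1, HSPB1, HSP90AA1, DNAJB1, HSPH1, HSPE1, HSPA1A and HSPA1B, where HSPE1 overlapped both of its neighbours. In WT without 4-OHT it ran HSPA8, HSPB1, HSP90AB1, HSPD1, HSP90AA1, DNAJB1, HSPA1A, HSPA1B, HSPH1 and HSPE1, where HSP90AA1 and DNAJB1 overlapped. The order depends on the transcript length listed for each gene: HSPD1 is listed at 529 bases although its longest coding transcript has 2455, and HSPE1 at 478 against 950. Per kilobase of the longest coding transcript, HSPD1 would stand at 71.8 RPKM in KO with 4-OHT and 32.2 RPKM in KO without, and at 56.0 RPKM in WT with 4-OHT and 27.0 RPKM in WT without. Changes within a gene do not depend on that length.

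Between genotypes with 4-OHT, 1 of the 10 messages was higher in KO than in WT and 2 were lower, where 6.77% and 7.62% of all genes tested were called in those directions (14.4% either way). HSPD1 was 1.28-fold higher in KO (log2 0.36, SE 0.08, adjusted p = 0.0298, limma). Its call was lost with no filter (adjusted p = 0.0724) and without KO clone 66 (0.128), KO clone 69 (0.103), WT clone 15 (0.146) or WT clone 54 (0.0508) with 4-OHT. HSPB1 fell by 0.45 on the log2 scale in KO relative to WT (SE 0.09, adjusted p = 0.0188, limma), a call lost without KO clone 69 (0.119), WT clone 15 (0.110) or WT clone 54 (0.0586) with 4-OHT. HSPA1A fell by 0.50 (SE 0.12, adjusted p = 0.0344, limma), and its call was lost with no filter (0.0957), with the 4 libraries alone (0.0522) and with the reads of HSPA1A and HSPA1B summed (log2 -0.27, adjusted p = 0.0719). It was also lost without KO clone 66 (0.0803), KO clone 69 (0.192) or WT clone 15 (0.177) with 4-OHT, and without KO clone 66 (0.0716) or KO clone 69 (0.0721) without 4-OHT. HSPE1 had a log2 difference of 0.58 (95% interval 0.09 to 1.07, adjusted p = 0.109) and HSP90AA1 of 0.26 (0.05 to 0.46, adjusted p = 0.0974), which passed without WT clone 15 (0.0420) or WT clone 54 (0.0362) without 4-OHT. The log2 differences of HSPA8 (-0.13), HSPA1B (0.0028), DNAJB1 (0.0012), HSP90AB1 (0.12) and HSPH1 (0.17) did not pass, and their 95% intervals lay within -0.33 and 0.34.

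Without 4-OHT no member was called between KO and WT by limma, where 2.85% of all genes tested were called higher and 3.73% lower (6.58% either way). HSPH1, HSPD1 and HSPB1 had an unadjusted p under 0.05 (limma). The share of all genes under that unadjusted threshold was not counted, so nothing is read from their number. HSPH1 was 1.22-fold higher in KO (log2 0.28, SE 0.07, adjusted p = 0.0613, limma), and limma-voom on the recovered reads called it (adjusted p = 0.0374) and no other member. HSPD1 had a log2 difference of 0.25 (95% interval 0.06 to 0.44) and HSPB1 of -0.22 (-0.43 to -0.02). Their signs were those seen with 4-OHT, in the same clones. The other 7 members had log2 differences between -0.16 (DNAJB1) and 0.38 (HSPE1, 95% interval -0.11 to 0.86).

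No member's 4-OHT response was called different between KO and WT by limma, where 4.36% of all genes tested were called higher and 3.22% lower (7.58% either way). With limma-voom 0 members were called as well. HSPA1A and HSP90AA1 had an unadjusted p under 0.05 (limma), a threshold at which the share of all genes was not counted. For HSPA1A the KO response minus the WT response was -0.48 on the log2 scale (SE 0.17, adjusted p = 0.128, limma). With the replicate block, which pairs the libraries of a clone, HSPA1A was called (adjusted p = 0.0467). For HSP90AA1 the difference was 0.36 (SE 0.13, adjusted p = 0.129), and it was called without WT clone 15 without 4-OHT (adjusted p = 0.0363). For HSPA8, HSPH1 and HSPB1 it was -0.17, -0.11 and -0.23, and for HSPE1 0.20, with a 95% interval from -0.48 to 0.89. A member that passed in KO alone (HSPA1A, DNAJB1) or in WT alone (HSPA1B) was therefore not shown to respond differently by genotype, apart from HSPA1A under the block.

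The promoters of 4 members called in both genotypes, with that of HSPA1A for contrast, are shown for their heat shock elements. RefSeq windows (GRCh38.p14) from 250 bases before to 50 bases after a start were searched for GAANNTTC or TTCNNGAA, the 2-unit forms of an element of inverted GAA units, which read the same on either strand. All 10 members matched by symbol, with 16 windows. At least 1 match stood in 9 of the 16 windows and in 8 of the 10 genes, HSPE1 and HSPH1 being without, against 13.5% of all 35116 windows. The longer form of 3 units, GAANNTTCNNGAA or TTCNNGAANNTTC, each the reverse complement of the other, stood in 4 of the 16 windows (HSPA8, HSP90AA1, HSP90AB1 and HSPD1), against 0.49% of all windows. Capitals mark matches to either form, which may overlap.
HSPA8 promoter, chr11:123062087-123062386, minus strand: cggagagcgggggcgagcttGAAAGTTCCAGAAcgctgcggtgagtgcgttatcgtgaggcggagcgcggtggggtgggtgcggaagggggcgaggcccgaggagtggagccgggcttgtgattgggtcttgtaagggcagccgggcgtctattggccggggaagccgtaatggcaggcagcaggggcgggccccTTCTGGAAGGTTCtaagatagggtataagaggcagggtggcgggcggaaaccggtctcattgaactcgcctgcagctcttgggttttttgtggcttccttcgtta
HSP90AA1 promoter, chr14:102086995-102087294, minus strand: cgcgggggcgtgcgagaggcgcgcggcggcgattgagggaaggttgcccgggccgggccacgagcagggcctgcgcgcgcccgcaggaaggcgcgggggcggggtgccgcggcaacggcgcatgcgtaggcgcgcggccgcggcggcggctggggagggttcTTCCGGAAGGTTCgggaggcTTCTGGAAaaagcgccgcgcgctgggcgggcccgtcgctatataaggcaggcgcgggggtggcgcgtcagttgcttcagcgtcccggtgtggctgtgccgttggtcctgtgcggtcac
HSPD1 promoter, chr2:197499791-197500090, minus strand: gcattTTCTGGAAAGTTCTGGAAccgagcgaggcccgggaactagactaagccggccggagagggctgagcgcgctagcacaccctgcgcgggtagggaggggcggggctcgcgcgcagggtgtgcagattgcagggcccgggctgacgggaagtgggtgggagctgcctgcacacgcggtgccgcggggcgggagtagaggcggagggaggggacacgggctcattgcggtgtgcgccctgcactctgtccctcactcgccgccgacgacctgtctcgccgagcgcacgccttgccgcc
HSPA1A promoter, chr6:31815293-31815592, plus strand: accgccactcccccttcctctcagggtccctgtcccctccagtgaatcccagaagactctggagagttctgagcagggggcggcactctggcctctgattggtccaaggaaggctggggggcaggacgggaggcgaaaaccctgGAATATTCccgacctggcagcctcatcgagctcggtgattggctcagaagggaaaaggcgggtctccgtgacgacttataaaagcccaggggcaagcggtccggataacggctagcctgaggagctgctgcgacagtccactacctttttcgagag
HSPB1 promoter, chr7:76302423-76302722, plus strand: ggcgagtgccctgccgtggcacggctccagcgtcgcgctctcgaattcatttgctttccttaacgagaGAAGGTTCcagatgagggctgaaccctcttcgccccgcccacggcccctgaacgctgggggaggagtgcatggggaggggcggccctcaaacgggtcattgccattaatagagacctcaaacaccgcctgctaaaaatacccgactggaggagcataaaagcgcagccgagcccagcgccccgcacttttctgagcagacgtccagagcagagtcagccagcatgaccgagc

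HSPA8 had matches beginning 230, 225, 55 and 50 bases before its start, HSP90AA1 88, 83 and 68 bases, and HSPD1 245, 240 and 235 bases. HSPA1A had 1 match at 106 bases and HSPB1 1 at 182 bases before the start. The HSPD1 run is 18 bases long and lies between the starts of HSPD1 and HSPE1, 228 bases from the first and 294 bases from the second, so that it falls outside the HSPE1 window. The HSPA1A and HSPA1B windows are identical at 277 of 300 bases (92.3%). The 4 genes with the longer form rose with 4-OHT in both genotypes, as did HSPH1 and HSPE1, which had no match within their windows. HSPB1, with 1 match, fell. Whether the elements bear on these changes was not tested. A match describes letters in a window and not a bound site. The search took exact GAA and TTC units only, so that few or no matches do not show that an element is lacking.

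The regulators and partners of these chaperones were followed through 7 lists. Of the heat shock factors, HSF1, the main activator of the response, rose in KO (log2 0.57, SE 0.09, adjusted p = 0.00127, limma) and in WT (log2 0.65, SE 0.09), with 38.7 ± 1.2 RPKM in KO with 4-OHT and 26.0 ± 1.9 RPKM in KO without, and 41.8 ± 3.9 RPKM in WT with 4-OHT and 26.5 ± 0.64 RPKM in WT without. HSF2 did not pass in either genotype. HSF4, at 3 to 29 reads a library, fell in WT (log2 -2.09, SE 0.51, adjusted p = 0.0121), a call lost without WT clone 54 with 4-OHT (adjusted p = 0.0613) and with no filter (0.0505). HSF5 did not pass the filter. Of the 3 factors tested 1 was called higher and 0 lower in KO, and 1 higher and 1 lower in WT, against shares of all genes of 27.9% and 27.8% in KO and 24.7% and 24.2% in WT. Without KO clone 69 with 4-OHT, 1 factor was also called lower in KO.

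Co-chaperones hold, load or release HSP90 and HSP70. Of 21 tested, 13 rose and 3 fell in KO, with a median log2 change of 0.53, and 13 rose and 2 fell in WT, with a median of 0.33. Of all genes, 27.9% rose and 27.8% fell in KO and 24.7% rose and 24.2% fell in WT, with a median of -0.02 in each. STIP1, which bridges HSP70 and HSP90, had 118.6 RPKM in KO with 4-OHT and 48.6 RPKM in KO without, and 110.4 RPKM in WT with 4-OHT and 47.5 RPKM in WT without (log2 1.29 in KO and 1.21 in WT). FKBP4, the FKBP52 immunophilin of steroid receptor complexes, rose by 1.45 in KO and 1.51 in WT on the log2 scale, and AHSA1, the activator of HSP90's ATPase, by 0.89 and 0.79. CACYBP rose by 1.55 in KO and 1.04 in WT. With 4-OHT 1 of the 21 was called higher in KO than in WT and 4 lower, where 6.77% and 7.62% of all genes were. The count of 5 was 1 with no filter and without KO clone 66, KO clone 69 or WT clone 15 with 4-OHT. It was 2 with the 4 libraries alone, without WT clone 54 with 4-OHT and without either KO clone without 4-OHT. CACYBP, the higher one, had a log2 difference of 0.44 (SE 0.10, adjusted p = 0.0285, limma), a call lost with no filter (0.0898) and without KO clone 66 (0.106), KO clone 69 (0.128) or WT clone 15 (0.130) with 4-OHT. BAG1 was the lower one with the smallest p, at -0.99 (SE 0.13, adjusted p = 0.0068).

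Of 11 other cytosolic J-domain genes, 5 rose and 4 fell in KO and 6 rose and 3 fell in WT, with medians of 0.17 and 0.27 (log2), beside 27.9% and 27.8% of all genes in KO and 24.7% and 24.2% in WT. DNAJA1, an HSP70 partner, rose by 0.71 in KO and 0.78 in WT, and DNAJC5, a J-protein of vesicles, by 0.67 and 0.85. DNAJB4, a relative of DNAJB1, went the other way, with 11.7 ± 0.66 RPKM in KO with 4-OHT and 47.6 ± 1.3 RPKM in KO without, and 18.4 ± 0.989 RPKM in WT with 4-OHT and 29.1 ± 2.75 RPKM in WT without. Of 8 other HSP70 and HSP110 genes, 3 rose and 2 fell in KO and 4 rose and 2 fell in WT, beside the same shares. The KO count of 5 was 3 (2 higher and 1 lower) with no filter and without KO clone 66 or KO clone 69 with 4-OHT. HSPA2, a testis-rich HSP70 also made elsewhere, fell 5.73-fold in KO and 6.58-fold in WT (log2 -2.52 and -2.72, SE 0.09 each). HSPA4L rose by 1.41 in KO and 1.05 in WT on the log2 scale, and HSPA13 by 0.59 and 0.66.

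Of the 5 other small heat shock proteins tested, the family of HSPB1, 4 fell in KO and 3 fell in WT and 0 rose, with medians of -1.57 and -1.22 (log2), where 27.8% of all genes fell in KO and 24.2% in WT. CRYAB, alpha-B-crystallin, had 0 and 3 reads in KO with 4-OHT and 226 and 244 reads in KO without, and 10 and 10 reads in WT with 4-OHT and 192 and 128 reads in WT without. HSPB3 had 2 and 5 reads in KO with 4-OHT and 299 and 307 reads in KO without, and 17 and 10 reads in WT with 4-OHT and 156 and 127 reads in WT without. Fitted changes of such low counts depend on the added 0.1. HSPB6 fell by 1.57 in KO and by 1.22 in WT on the log2 scale, the WT call being lost without WT clone 54 with 4-OHT (adjusted p = 0.0584) or WT clone 15 without it (0.0526). HSPB8, a partner of BAG3, fell by 0.93 in KO, and its log2 difference in WT was -0.09 (adjusted p = 0.615).

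Of 15 other mitochondrial chaperones and proteases, 9 rose and 0 fell in KO, and 10 rose and 1 fell in WT, with medians of 0.48 and 0.46 (log2). The shares of all genes were 27.9% higher and 27.8% lower in KO and 24.7% and 24.2% in WT. HSPA9, the mitochondrial HSP70 called mortalin, had 84.1 RPKM in KO with 4-OHT and 43.9 RPKM in KO without, and 84.4 RPKM in WT with 4-OHT and 47.1 RPKM in WT without (log2 0.94 in KO and 0.84 in WT, SE 0.07 each). HTRA2 and CLPP, which are proteases, rose by 1.02 and 0.91 in KO and by 0.90 and 0.73 in WT. TRAP1, the mitochondrial HSP90, rose by 0.74 in KO. Its reads were also higher in WT with 4-OHT, at 2203 and 1978 against 1565 and 1460 without. GRPEL1, the nucleotide exchange factor of HSPA9, rose by 1.30 in WT. Its reads were also higher in KO with 4-OHT, at 1932 and 1878 against 883 and 1035 without. LONP1, a matrix protease, was the gene that fell in WT, by 0.61 (SE 0.10), and is named after its value was seen. With 4-OHT 1 of the 15, SPG7, was lower in KO than in WT (log2 -0.41, SE 0.07, adjusted p = 0.0150, limma) and 0 were higher, where 7.62% and 6.77% of all genes were called so. The SPG7 call was lost, leaving 0 of the 15, without KO clone 66 (0.0743), KO clone 69 (0.105), WT clone 15 (0.0808) or WT clone 54 (0.0622) with 4-OHT.

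Of 7 heat shock proteins of the endoplasmic reticulum, 3 rose and 2 fell in KO, and 5 rose and 1 fell in WT, against 55.7% of all genes called either way in KO and 48.9% in WT. HSPA5, the BiP chaperone of the lumen, rose by 0.81 in KO and 0.64 in WT (SE 0.09 each), and its J-domain partner DNAJB11 by 0.66 and 0.51. SERPINH1, the collagen chaperone HSP47, fell by 0.77 in KO and by 1.10 in WT, in the libraries in which the summed fibroblast markers, among them 3 collagen genes, were also low. Whether the marker level bears on it was not tested.

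**Figure D4:**
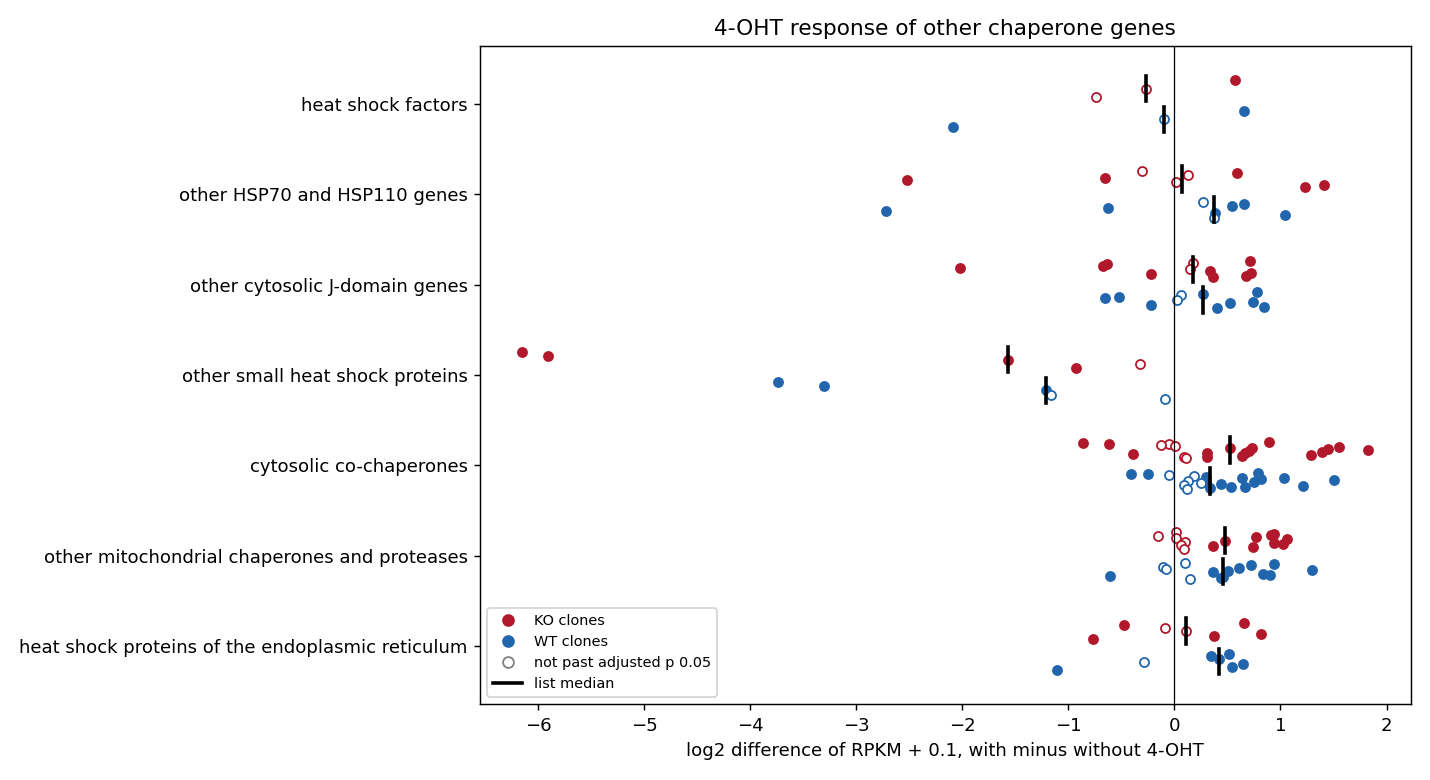
Log2 difference of RPKM + 0.1, with minus without 4-OHT, of the tested genes of 7 chaperone lists in KO and WT clones, with list medians as bars; filled points passed an adjusted p of 0.05. Small heat shock proteins lie left of 0 (medians -1.57 in KO and -1.22 in WT), and most co-chaperones and mitochondrial genes lie right of it.

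Genes of like pattern were sought among all genes tested by Pearson's r over the 8 libraries, as a description, since the libraries share the split by 4-OHT. For the mean z-score of the 8 cytosolic members the closest 5 were CSNK1D (r = 0.9936), ECE1, FBH1, MDH2 and PRRT3-AS1 (r = 0.9892). The cytosolic members themselves correlated with that mean at 0.88 (HSPA8), 0.86 (DNAJB1), 0.82 (HSP90AB1), 0.80 (HSP90AA1) and 0.78 (HSPH1), and at -0.02 (HSPA1A), -0.67 (HSPB1) and -0.73 (HSPA1B). Each member is itself part of the mean, which raises its r. The cytosolic messages hence did not form 1 pattern. For the mitochondrial pair the closest included TMX1 (r = 0.9920), AGPAT5, RASSF8 and FASTKD2 (r = 0.9895). HSPD1 and HSPE1 each stood at 0.9949, but they make up that mean, and with 2 members both have the same r by construction. RASSF8 had 75.2 ± 5.8 RPKM in KO with 4-OHT and 19.3 ± 0.59 RPKM in KO without, and 45.0 ± 6.3 RPKM in WT with 4-OHT and 14.02 ± 0.95 RPKM in WT without (SD, n = 2 each).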

How the data were processed

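Stranded total RNA libraries of 8 samples were made per the labels' protocols. The authors deposited RPKM values; the tools named in the submitters' processing notes are edgeR, STAR and featureCounts, with the GRCh38 build and no versions or settings. Multiplied by the GENCODE release 29 length of the listed transcript and by a library total of 22.058 to 24.908 M, 100.0% of 159720 deposited RPKM values above 0 became whole reads within 0.1 read, and 1 read in 1 kb is worth 0.0401 to 0.0453 RPKM. For 6571 rows the length was inferred from the steps of their values, and for 105 it came from another version of the transcript. Recovered reads summed to within 0.0395% of the totals. The 45 pseudoautosomal Y rows were left out.

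Each RPKM column was scaled by its library's trimmed-mean (TMM) factor (0.9536 to 1.0291, from the reads recovered). Genes with at least 10 reads at the median library size (CPM 0.4254) in 2 libraries and 15 reads in all were kept, 16543 in number. With limma 3.58.1 in R 4.3.3, 4 group means were fitted over the 8 libraries on log2(RPKM + 0.1), with trend and robust moderation and 4 residual degrees of freedom. Tests were two-sided, with Benjamini-Hochberg adjustment over every gene tested and a threshold of 0.05; the added 0.1 understates changes of low genes. The comparisons were the 4-OHT response in KO and in WT, KO minus WT with and without 4-OHT, and the KO response minus the WT response. The last shares its libraries with the others, as do the comparisons among themselves. The fit was tested on simulated data. The simulated libraries were drawn independently with no clone effect, so that this test does not cover clones shared between states. Counting error and clone spread limit the precision. The p-values rest on the spread between the libraries of a group, pooled over the groups and moderated across genes. Each clone was sampled in both states, and the main fit took its libraries as independent.

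The libraries of a clone with and without 4-OHT are paired by the labels' clone numbers. Their deviations from the group means correlated at 0.0054 in KO and 0.309 in WT over genes, from 2 pairs each. With 2 clones a group these deviations mirror each other, so that the pairs of a genotype are not independent. The fit with clone as a replicate block is given where it changed the call of a gene named.

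The members and all lists were chosen with earlier results of these data known. Named were every member, SNORA13, HSF1, and up to 4 genes of a list with the smallest p in a comparison. HSPE1-MOB4 and MOB4 were added for their overlap. One gene of like pattern to the mitochondrial pair is not reported here. Alternatives were pseudocounts of 1 and 0.01, library size alone, median-ratio factors, no filter, limma-voom, the 4 compared libraries alone, the block, abundant small RNAs left out of the totals, the HSPA1A and HSPA1B reads summed, and each library left out.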

Additional observations from a re-analysis of the deposited data

Results flagged for a closer look

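In 9 of the 70 genes tested over the 7 chaperone lists (12.9%), none of them among the 10 heat shock proteins, the 4-OHT response differed between KO and WT by the test of that difference (limma, adjusted p under 0.05), as in 7.58% of all genes tested. Among other small heat shock proteins, the KO response minus the WT response was -2.60 on the log2 scale for HSPB3, -2.41 for CRYAB and -0.84 for HSPB8, with the fall larger in KO. HSPB3 and CRYAB had 0 to 5 reads in KO with 4-OHT, so that their values depend on the added 0.1 and are no measure of size: with 0.01 added, CRYAB stood at -4.16 and was not called (adjusted p = 0.142). HSPB8 was not called with the replicate block, which pairs the libraries of a clone (adjusted p = 0.0606), or with limma-voom (0.0534). Among J-domain genes the difference was -1.37 for DNAJB4 and -0.70 for DNAJB14. For DNAJB4, which had 11.7 RPKM in KO with 4-OHT and 47.6 RPKM in KO without, against 18.4 RPKM in WT with 4-OHT and 29.1 RPKM in WT without, the call held on leaving out each of the 8 libraries (adjusted p of 0.00187 to 0.0351). Among co-chaperones it was -0.48 for ST13 and 1.70 for FKBP5, an HSP90 immunophilin at 8 to 71 reads a library. For the mitochondrial protease LONP1 it was 0.67, and for DNAJB9, a J-domain protein of the endoplasmic reticulum, -0.82.

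Apart from DNAJB4, each of these calls was lost with no filter, at an adjusted p of 0.0537 (HSPB3), 0.0692 (ST13), 0.0881 (DNAJB9), 0.103 (DNAJB14), 0.106 (LONP1), 0.133 (HSPB8), 0.135 (CRYAB) and 0.138 (FKBP5). With library size alone as scaling, DNAJB14 (0.0505) and ST13 (0.0592) lost it too. Each of the 8 was also lost on leaving out some library. HSPB3 lost it without KO clone 66 (adjusted p = 0.0607) or KO clone 69 (0.0643) without 4-OHT. CRYAB lost it without KO clones 66 (0.128) and 69 (0.147) without 4-OHT, WT clones 15 (0.113) and 54 (0.0976) with 4-OHT and WT clone 54 without (0.0961). The other 6 lost it without KO clone 69 with 4-OHT, with an adjusted p of 0.108 (DNAJB9), 0.114 (LONP1), 0.117 (FKBP5), 0.133 (DNAJB14), 0.139 (ST13) and 0.155 (HSPB8), without KO clone 69 without 4-OHT (0.0842 to 0.140), and without WT clone 15 with 4-OHT (0.0857 to 0.119). KO clone 66 with 4-OHT (0.0572 to 0.0906) did the same in all 6, KO clone 66 without 4-OHT in all but HSPB8 (0.0720 to 0.118), WT clone 54 with 4-OHT in HSPB8, ST13, FKBP5 and DNAJB9 (0.0593 to 0.102) and WT clone 54 without 4-OHT in all but DNAJB9 (0.0597 to 0.0815). The part of the signal recognition particle share and of the summed fibroblast markers was not tested. Both moved with 4-OHT, apart from that share in WT clone 15, which hardly changed.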

How the results depend on the processing

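Of the 20 results in which a heat shock protein message was called, 0 of 342 repeats under another setting turned the direction and 37 lost the call, all in the 6 results whose lost calls are given above; the cause was not tested. With no filter, KO minus WT with 4-OHT called 1 member and 994 genes in place of 3 and 2381, KO minus WT without 4-OHT called 245 genes in place of 1088, and the difference of the responses called 437 genes in place of 1254. For KO minus WT without 4-OHT, limma-voom called 1 member and 1778 genes, and the 4 libraries alone called 75 genes. The replicate block, which pairs the libraries of a clone, called 1 member (HSPA1A) in the difference of the responses and ended the call of HSPA1B in WT; it changed no other call of a member. Leaving out 1 library at a time gave 7 to 9 members and 7168 to 9623 genes for the KO response, and 7 members and 6420 to 7609 genes for the WT response. It gave 0 to 4 members and 173 to 3009 genes for KO minus WT with 4-OHT, the lowest without KO clone 69 and the highest without WT clone 15 without 4-OHT, and 0 members and 5 to 1883 genes for KO minus WT without it. For the difference of the responses it gave 0 to 1 member and 299 to 2184 genes. A lone clone was then assumed to vary like the other groups.

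Directions turned only in differences that were not called. Leaving out 1 library put the log2 difference of KO minus WT with 4-OHT between -0.019 and 0.048 for DNAJB1 and between -0.0079 and 0.024 for HSPA1B. For KO minus WT without 4-OHT the ranges were -0.095 to 0.057 for HSF1, -0.20 to 0.0091 for HSP90AA1, -0.13 to 0.098 for HSPA1A and -0.064 to 0.16 for HSPA8. The WT response of HSPA1A ranged from -0.061 to 0.21, and was -0.046 with the reads of HSPA1A and HSPA1B summed. The difference of the responses ranged from -0.16 to 0.017 for HSF1 and from -0.055 to 0.48 for HSPE1. No scaling moved the median of all genes by more than 0.1 (log2). The planned count tests of edgeR and DESeq2 were not run, because the deposited unit is RPKM. With 2 clones a group, effects smaller than clone spread were not detectable, and reads below 10 in HSF4, CRYAB and HSPB3 limit their sizes.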
